A study of Mus musculus with 7 samples.

Results

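The sine oculis homeobox genes Six2, Six4 and Six5 and the eyes absent genes Eya1, Eya2, Eya3 and Eya4 of the mouse are described here. They are 7 of 21887 protein-coding genes. They were chosen by name and not by a cut on any measured value, but with earlier results of these data known. Sine oculis homeobox genes encode homeodomain transcription factors that also have a conserved domain for binding partner proteins. Eya proteins do not bind DNA by themselves: they are coactivators with a phosphatase domain that sine oculis proteins bring to chromatin, with Pax proteins often acting upstream of both and Dach proteins acting as further cofactors. The network is known for its roles in the branchial arches, the ear, the kidney and skeletal muscle, and mutations in EYA1 and SIX5 are linked to branchio-oto-renal syndrome. β-catenin, which carries the canonical Wnt signal into the nucleus, reaches DNA through TCF/LEF factors, and Pygo2 is a PHD-finger protein joined to β-catenin by Bcl9.

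Chromatin immunoprecipitation followed by sequencing (ChIP-seq) had been done on branchial arches of wild-type mouse embryos at 10.5 days post coitum, pooled from many embryos. The peak list of the β-catenin BA2 library (1079 peaks from 13672937 tags) and that of the Pygo2 BA2 library (7150 peaks from 15009636 tags) were used. Both had the IgG BA1 library as control, per the file headers, although the deposited names of the lists join IgG with BA2. What BA1 and BA2 stand for is not given in the labels, which also do not name the strain or sex of the embryos. The series also has a β-catenin BA1 and a Pygo2 BA1 library, which were not used. Whether they are replicates of the BA2 libraries is not stated. Every count below rests on 1 library per protein, so no value has a replicate error and no test between conditions was made. Peak positions give no expression level, so the tissue label could not be checked against marker transcripts. Genes with a Pygo2 peak within 100 kb were 9 of 11 for arch mesenchyme and 4 of 7 for pharyngeal epithelium. They were 2 of 6 for arch muscle and 1 of 8 for hepatocytes, where 57.6% of all protein-coding genes had one. For β-catenin the counts were 2 of 11, 2 of 7, 1 of 6 and 0 of 8, where 17.2% of all genes had one. Neighbours such as Dlx1 and Dlx2, or Dlx5 and Dlx6, had the same nearest Pygo2 peak. These counts are no check of the tissue.

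Peaks were listed inside or within 100 kb of each gene, with distances taken from the middle of the peak to the closer gene end. There were 12 of them: 11 Pygo2 peaks and 1 β-catenin peak. The Pygo2 peaks fell to Six2 (1 peak), Six4 (1 peak), Six5 (5 peaks) and Eya2 (4 peaks), and the β-catenin peak to Six4. Eya1, Eya3 and Eya4 had no peak of either list in this window, as was the case for 40.3% of all protein-coding genes. Thus 4 of 7 genes had a Pygo2 peak, where 57.6% of all protein-coding genes did, and 1 of 7 had a β-catenin peak, where 17.2% of all genes did. Both shares are near the background. No position shared by the lists (overlap of at least 1 bp) lay in any of the 7 windows, and 6.32% of all genes had one in theirs. A gene without a listed peak is a gene where the caller's thresholds were not passed, and weaker signal there cannot be seen in these lists.

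**Figure D1:**
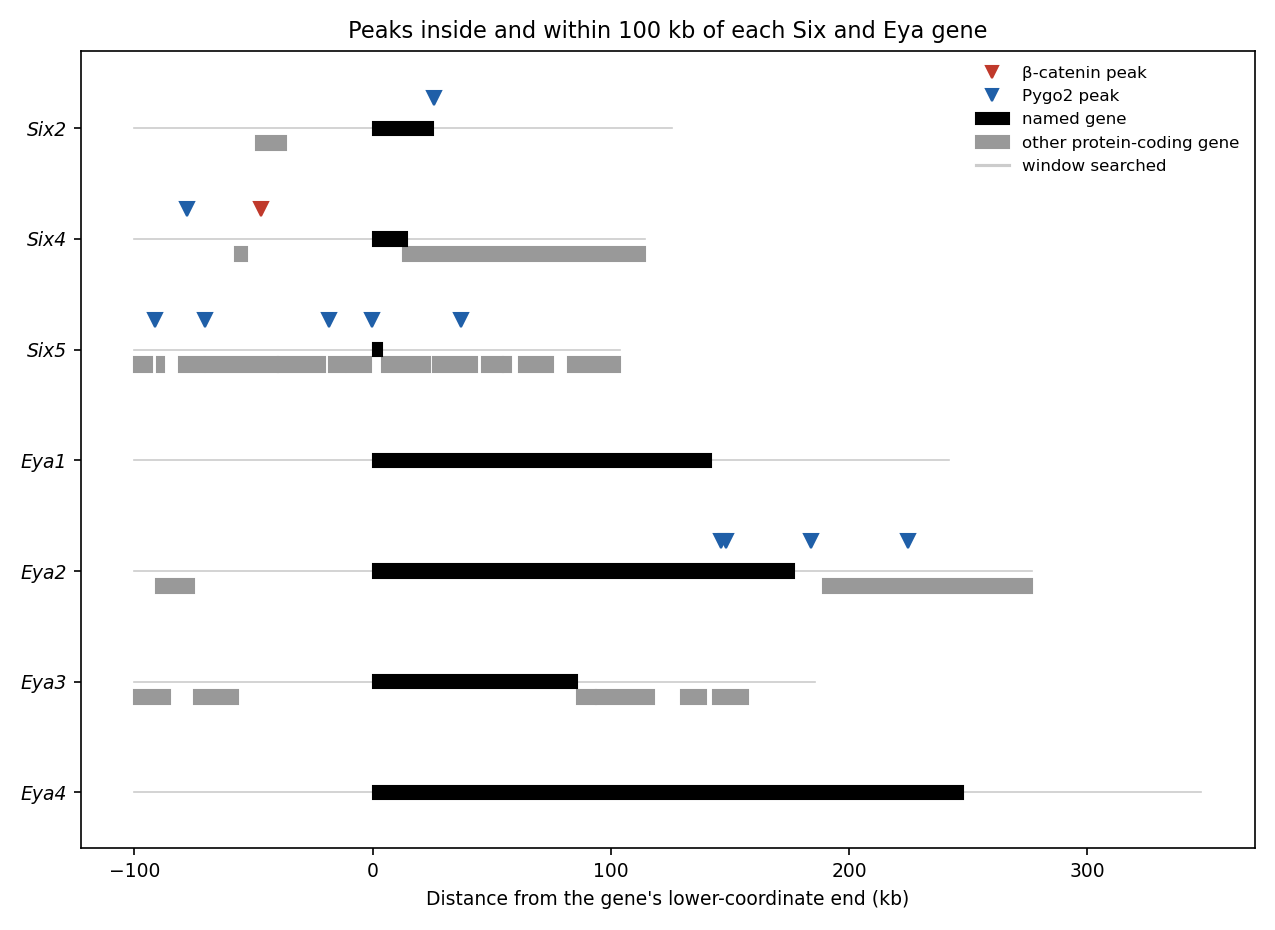
Map of the 7 loci, each drawn to the same scale from the lower-coordinate end of the gene (horizontal axis, kb). Black bars are the named genes, grey bars other protein-coding genes, and triangles peak centres (blue for Pygo2, red for β-catenin). The 5 Pygo2 peaks around Six5 lie among 13 other genes, the 4 around Eya2 lie toward its higher-coordinate end, and Eya1 and Eya4 stand alone in their windows without a peak.

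The peaks beside Six2 and in the Six5 window are shown first, because these are the peaks whose letters could be read. RefSeq promoter entries (GRCm38.p6, 250 bases before to 50 bases after a transcription start) were present for 5 of the 7 genes. The first sequence runs from the base before the start of Six2 (which is on the minus strand) at chr17:85688255-85688543. It is written on the plus strand, and the capitals mark the whole 167-base Pygo2 peak. The other sequences are the 250 bases before the starts of Sympk (chr7:19024127-19024376) and Dmwd (chr7:19075950-19076199), both on the plus strand and both neighbours of Six5. Capitals mark all 167 bases of the Pygo2 peak at Sympk and 134 of the 167 bases of the peak at Dmwd.
Six2: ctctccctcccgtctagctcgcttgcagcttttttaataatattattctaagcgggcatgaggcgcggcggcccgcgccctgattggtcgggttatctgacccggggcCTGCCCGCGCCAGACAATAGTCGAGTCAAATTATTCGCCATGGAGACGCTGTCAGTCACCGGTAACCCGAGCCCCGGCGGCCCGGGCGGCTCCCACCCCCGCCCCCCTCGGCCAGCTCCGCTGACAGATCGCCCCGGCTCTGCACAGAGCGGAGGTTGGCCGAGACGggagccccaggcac
Sympk: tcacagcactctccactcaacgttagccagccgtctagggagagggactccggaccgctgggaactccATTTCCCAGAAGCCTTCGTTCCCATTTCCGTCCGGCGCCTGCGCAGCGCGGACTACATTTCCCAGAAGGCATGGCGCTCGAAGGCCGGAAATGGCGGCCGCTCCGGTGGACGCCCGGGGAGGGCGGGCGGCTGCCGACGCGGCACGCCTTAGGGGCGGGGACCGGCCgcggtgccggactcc
Dmwd: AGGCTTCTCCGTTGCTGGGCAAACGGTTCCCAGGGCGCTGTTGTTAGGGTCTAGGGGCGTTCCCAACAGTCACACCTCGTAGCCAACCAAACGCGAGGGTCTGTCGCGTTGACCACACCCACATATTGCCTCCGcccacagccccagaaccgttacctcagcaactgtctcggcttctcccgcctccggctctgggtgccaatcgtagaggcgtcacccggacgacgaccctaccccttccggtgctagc

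Six2, which keeps nephron progenitors of the kidney undifferentiated and is also expressed in facial mesenchyme, had its only peak directly before its transcription start. The gene lies on chromosome 17 (85662736 to 85688254, mm10), and the Pygo2 peak at 85688363 to 85688529 was centred 192 bp upstream of the start. The same peak was centred 48 bp upstream of a start of CJ186046Rik, a gene listed on the other strand, so its centre lies between the starts of a divergent gene pair and its higher-coordinate edge covers the CJ186046Rik start. The nearest other protein-coding gene was Six3, the paralogue needed for forebrain and eye, 62.3 kb from the peak. This was the Pygo2 peak at 20.6% of the list. The nearest β-catenin peak was 245 kb from Six2 and lay 51.7 kb from Srbd1.

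Six5, a gene next to the myotonic dystrophy locus Dmpk, had the most Pygo2 peaks of the 7, but the peaks lay nearer to other genes. The gene is short (4.01 kb, chromosome 7, 19094544 to 19098549), and 13 other protein-coding genes lie within 100 kb of it. The peak nearest to it, at 19094090 to 19094256, was centred 371 bp upstream of the Six5 start and 352 bp beyond the end of Dmpk, which encodes a protein kinase. It stopped 37 bases short of the promoter entry of Six5, so its letters are not shown.

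The other 4 Pygo2 peaks of the Six5 window were at neighbours. The peak at 19024195 to 19024361, 70.3 kb from Six5, was centred 99 bp upstream of the start of Sympk, which encodes the scaffold protein symplekin of mRNA 3′ end formation. The peak at 19075917 to 19076083, 18.5 kb away, was centred 200 bp upstream of the listed start of Dmwd. Those at Irf2bp1 (19002862 to 19003028) and inside Fbxo46 (19131541 to 19131707) were 91.6 kb and 33.1 kb from Six5. The Irf2bp1 peak was centred 1113 bp upstream of its gene, which encodes a transcriptional corepressor. The peak inside Fbxo46, an F-box protein gene, was the earliest listed of the 11, at 6.36% of the Pygo2 list, and lay 11765 bp past a listed start.

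Peak number followed the crowding of genes in the genome at large. Of the 3157 protein-coding genes with 10 or more others within 100 kb, the class of Six5, 78.6% had a Pygo2 peak in the window, with a median of 3 peaks. At least 5 Pygo2 peaks were found for 10.2% of all genes. The nearest β-catenin peak to Six5, at 104 kb, was just outside the window and 0.366 kb from Mypop.

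**Figure D2:**
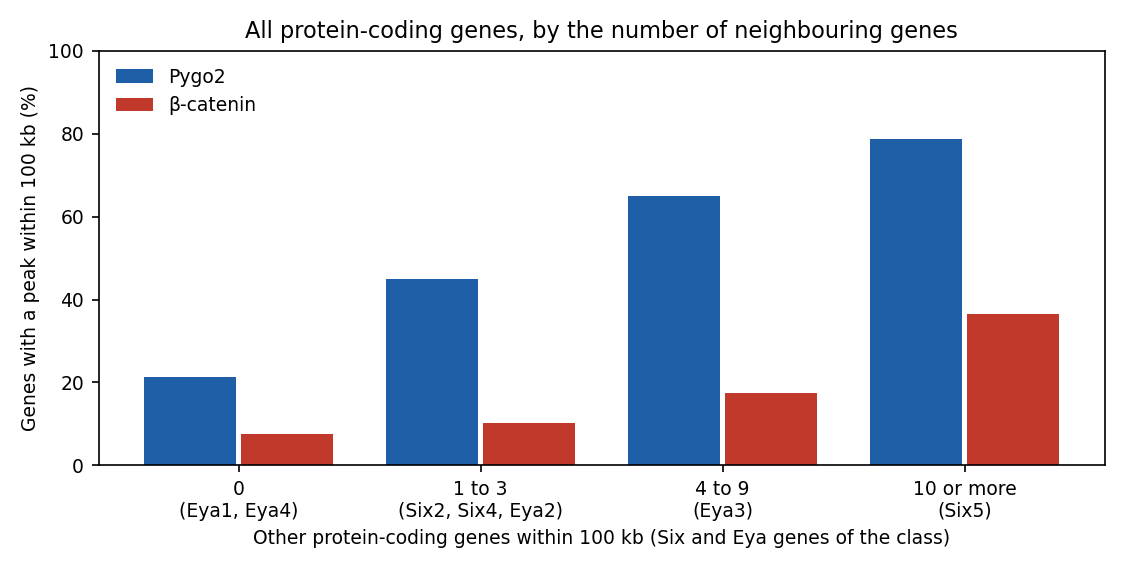
Percent of all protein-coding genes with a peak inside or within 100 kb (vertical axis), by the number of other protein-coding genes in the same window (horizontal axis), for Pygo2 in blue and β-catenin in red. The Pygo2 share goes from 21.3% for genes with no neighbour, the class of Eya1 and Eya4, to 78.6% for genes with 10 or more, the class of Six5.

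Six4, which acts in muscle formation and in sensory placodes, was the only one of the 7 with a β-catenin peak in its window. It lies on chromosome 12 (73099609 to 73114031) and overlaps Mnat1 at its higher-coordinate end. The β-catenin peak at 73052463 to 73052631 was 47.1 kb from Six4, and the Pygo2 peak at 73021398 to 73021564 was 78.1 kb from it. Both lay beyond the lower-coordinate end of the gene, and they were 31.1 kb apart. Each was nearer to another protein-coding gene than to Six4. The β-catenin peak stood at 41.8% of its list and the Pygo2 peak at 89.6% of its own. Peaks of both proteins in the window, whether or not they overlapped, were found for 15.1% of all genes.

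Eya2, a coactivator gene of placodes and developing muscle, was the only one of the 7 with peaks inside the gene. It spans 177 kb of chromosome 2 (165595028 to 165771727). Pygo2 peaks at 165741172 to 165741338 and at 165743091 to 165743257 lay inside it, 30.5 kb and 28.6 kb from its higher-coordinate end, and were 1.92 kb apart. Both were nearer to Eya2 than to any other protein-coding gene; Zmynd8, a chromatin reader gene, was next at 42.9 kb and 41.0 kb. The gene table used gives no exons, so exons and introns were not told apart. A Pygo2 peak inside the gene was found for 15% of all genes. That share covers genes of every length and was not matched to the 177 kb of Eya2. No β-catenin peak lay inside any of the 7 genes, and 2.47% of all genes held one.

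The other Pygo2 peaks of the Eya2 window belonged by distance to Zmynd8. The peak at 165779053 to 165779219 lay between the genes, 7.41 kb from Eya2 and 5.02 kb from Zmynd8. The peak at 165819622 to 165819788 was inside Zmynd8, 48.0 kb from Eya2. All 4 peaks were thus in the part of the window toward Zmynd8, and none lay between the lower-coordinate end of Eya2 and a point 146 kb into the gene. The nearest β-catenin peak, 113 kb from Eya2, was inside Zmynd8 too. At least 4 Pygo2 peaks were found for 15% of all genes, again without matching for gene length.

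Eya1, the coactivator gene needed for the ear, the kidney and the organs of the pharyngeal arches, had the most distant peaks. It lies on chromosome 1 (14168953 to 14311035) with no other protein-coding gene within 100 kb, and its nearest neighbour, Msc, is 442 kb away. The nearest Pygo2 peak was 508 kb away, 0.181 kb from Lactb2, and the nearest β-catenin peak 505 kb away on the other side, 56.8 kb from Trpa1. No peak of either list within 500 kb, a window chosen after these distances were seen, was found for 15.4% of all genes.

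Eya4, which is linked to hearing loss and to heart muscle disease, spans 248 kb of chromosome 10 (23102962 to 23350838) and also has no protein-coding neighbour within 100 kb. Its nearest Pygo2 peak was inside Tbpl1, 372 kb away, and its nearest β-catenin peak inside Rps12, 436 kb away. Eya3, the most broadly expressed of the Eya genes, lies on chromosome 4 (132639025 to 132724765) among 6 other genes. Its nearest Pygo2 peak, at 104 kb, was just outside the window and 0.05 kb from Atpif1, and its nearest β-catenin peak was inside Rcc1, 297 kb away. For genes with 4 to 9 neighbours, the class of Eya3, a Pygo2 peak was in the window of 65.1%, and for genes with none, the class of Eya1 and Eya4, 21.3% had one.

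The distances to the nearest Pygo2 peak ran, from the nearest, Eya2 (inside), Six2 (0.192 kb), Six5 (0.371 kb), Six4 (78.1 kb), Eya3 (104 kb), Eya4 (372 kb) and Eya1 (508 kb). With 1 library per protein used, the order of close neighbours in this series, such as Six2 and Six5, has no error to be judged against. The median over all genes was 62.4 kb, and 3 of the 7 were nearer than that. For β-catenin the order was Six4 (47.1 kb), Six5 (104 kb), Eya2 (113 kb), Six2 (245 kb), Eya3 (297 kb), Eya4 (436 kb) and Eya1 (505 kb). All 7 distances were below the median of 645 kb, taken over the 21631 genes on chromosomes with a β-catenin peak. The share of all protein-coding genes with a nearer β-catenin peak ran from 10.8% (Six4) to 44.0% (Eya1). Distances run to the gene ends, and gene length was not matched. Of the 7 distances, 6 lay outside the window.

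**Figure D3:**
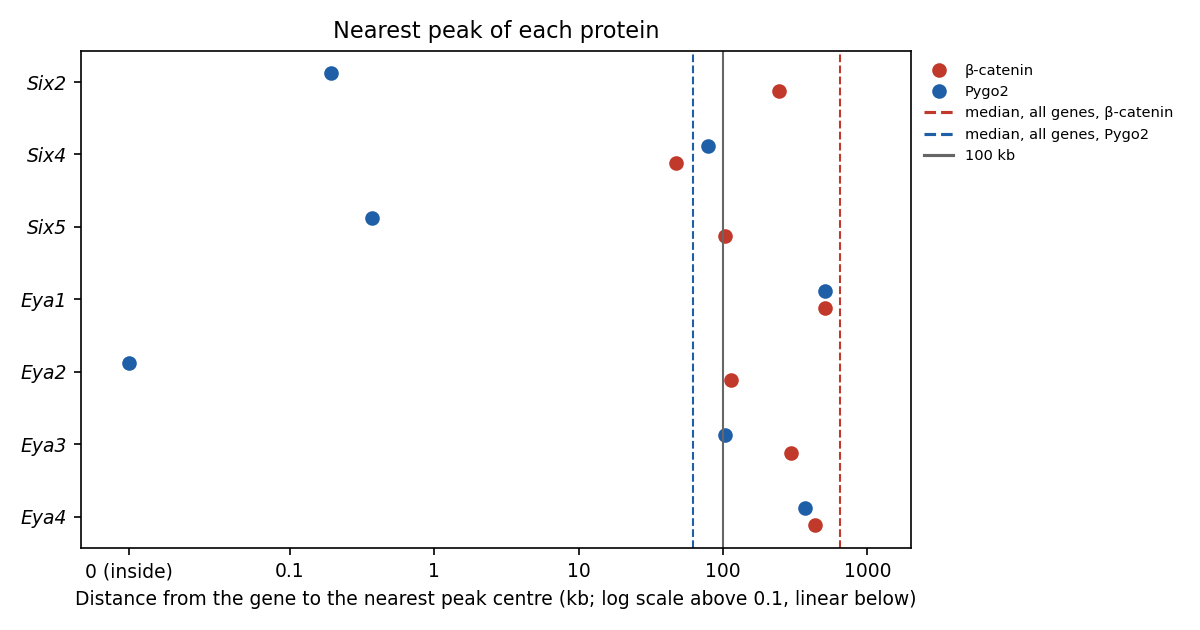
Distance from each gene to the centre of the nearest Pygo2 peak (blue) and β-catenin peak (red), in kb. The axis is logarithmic and is linear below 0.1 kb. Dashed lines are medians over all protein-coding genes, for β-catenin only those on chromosomes with a β-catenin peak. The grey line is the 100 kb window. Eya2, Six2 and Six5 have a Pygo2 peak at 0.371 kb or nearer, and Six4 is the only gene with a β-catenin peak left of the grey line.

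**Figure D4:**
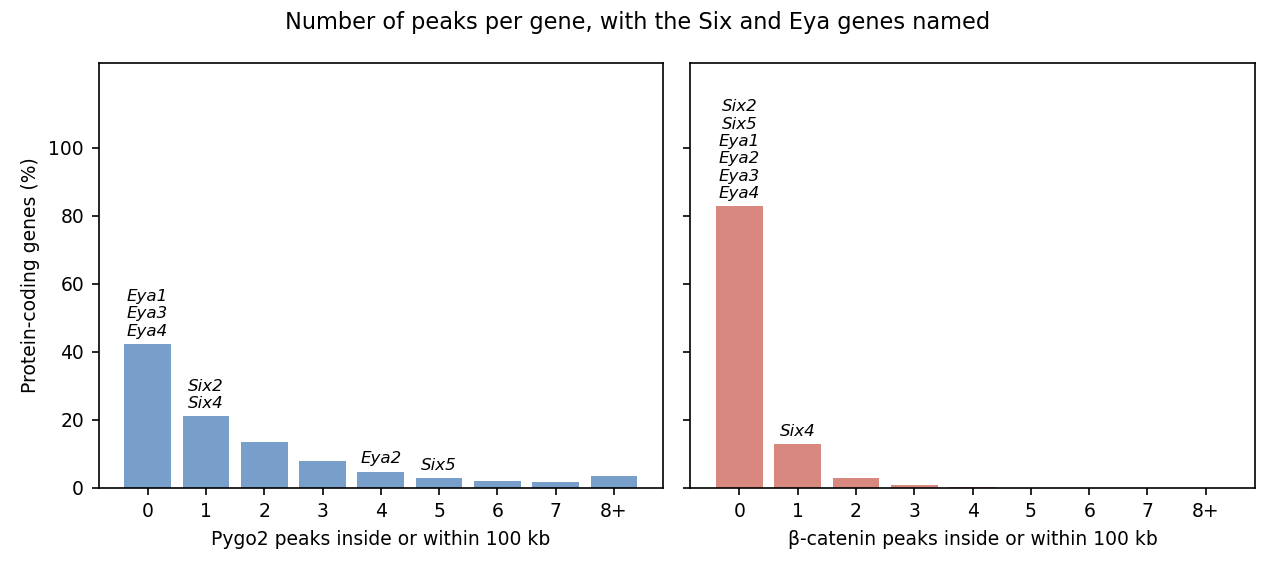
Percent of protein-coding genes (vertical axis) by the number of peaks inside or within 100 kb (horizontal axis), for Pygo2 on the left and β-catenin on the right, with the 7 genes written above the bar of their own count. Eya2 and Six5, with 4 and 5 Pygo2 peaks, stand in the sparse right part of the Pygo2 plot.

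Most of the listed Pygo2 peaks lay nearer to a neighbour than to the gene whose window they were in. Of the 11 Pygo2 peaks, 3 had one of the 7 as their nearest protein-coding gene (the Six2 peak and both peaks inside Eya2), and 8 lay nearer to another gene. Among the 8, the peak upstream of Six5 lay 371 bp from Six5 and 352 bp from Dmpk, a near tie. How often peaks in the windows of other genes lie nearer to a neighbour was not computed. Within 1 kb of a gene end, 2 of the 7 genes had a Pygo2 peak (Six2 and Six5), where 16.5% of all genes did, and 0 had a β-catenin peak, where 2.01% did. Of the 11 Pygo2 peaks, 4 were centred within 500 bp of a listed start (those at Six2, Six5, Sympk and Dmwd), where 38.7% of 6990 Pygo2 peaks on the chromosomes with listed starts were.

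None of the 12 peaks overlapped a peak of the other list, where 25.3% of all β-catenin peaks and 3.82% of all Pygo2 peaks did. From the Six2 peak to the nearest β-catenin peak it was 244 kb. The peaks around Six5 were 12.1 to 141 kb from a β-catenin peak, and those around Eya2 were 65.0 to 143 kb from one.

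Promoter letters were searched for motifs on both strands. CTTTGA, the core letters bound by TCF/LEF factors, was in none of the 7 promoter entries of the 5 genes (Six2, Six4, Six5, Eya3 and Eya4), in the Six2 or Sympk peak or in the printed part of the Dmwd peak. It was in 16.0% of all 32851 promoter entries. CTTTGATC, a longer form that contains it, was in none of these and in 0.938% of all entries. TCAGGTTTC, the MEF3 motif that sine oculis proteins bind in muscle genes, was in 1 of the 7 entries and in 0.429% of all entries. It is shown because it is the only match among these genes, and it belongs to Six4 itself. The capitals mark the motif, read on the minus strand, the strand of Six4, where it appears as its reverse complement (chr12:73113326-73113354).
Six4: tggcctggggGAAACCTGAtcggccagat

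The match was centred 95 bases upstream of a listed Six4 start and 85 bases downstream of the other. No peak of either list overlapped the Six4 entries. Of the 7 entries, only that of Six2 was overlapped by a Pygo2 peak, where 8.17% of all entries were, and none by a β-catenin peak, where 0.749% were. The Six2 entry had 67.3% G and C and 37 CpG dinucleotides, more CpG than 94.4% of all entries. Of the entries without a peak, those of Eya4 had 36 and 28 CpG dinucleotides, that of Eya3 had 25, that of Six5 had 17 and those of Six4 had 16 and 15. The median was 23 over entries with a Pygo2 peak and 6 over those without.

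Paralogues and partners of these proteins were examined as a list of 16 genes. It held the paralogues Six3 and Six6, Sobp, and members of the Dach, Pax and Tle families. A Pygo2 peak within 100 kb was present for 11 of the 16 (68.8%, with a median of 1 peak, the same median as over all genes), and a β-catenin peak for 1 of the 16. The shares over all genes were 57.6% and 17.2%. No shared position lay in these windows, and 6.32% of all genes had one. The only Pygo2 peak of Six3 was the peak already described at Six2. That of Six6 was the Pygo2 peak of the Six4 window. Tle2, a Groucho-type corepressor gene, had 8 Pygo2 peaks in its window, the nearest 2.94 kb away. Sobp, which encodes a protein named for binding sine oculis proteins, had 7, of which 4 were inside the gene. Tle3 had 5, of which 2 were inside. Over all protein-coding genes, 10.2% had at least 5 Pygo2 peaks in the window and 15% had one inside the gene. Tle2, Sobp and Tle3 are named for their counts, and the crowding of genes around them was not examined. Dach1, a sine oculis cofactor gene, had 2 Pygo2 peaks and the β-catenin peak at 98047635 to 98047803 on chromosome 14 inside the gene. Pax2, an upstream factor in kidney and ear, and Pax3 and Pax7, factors of muscle and neural crest, had 2 Pygo2 peaks each, 1 of them inside the gene. Pax1, Pax6, Pax8, Pax9 and Dach2 had no peak of either list in their windows.

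Of 26 genes that act downstream of or beside these factors in ear, kidney, pharynx and muscle, 12 had a Pygo2 peak within 100 kb (46.2%, against 57.6% of all genes) and 6 a β-catenin peak (23.1%, against 17.2%). These 6 genes, Ccnd1, Fgf3, Fgf8, Tbx1, Hoxa2 and Hoxa11, had 4 distinct β-catenin peaks among them. Hoxa2 and Hoxa11, of the same cluster, had the same nearest β-catenin peak, and so did Ccnd1 (0.805 kb away) and Fgf3 (97.3 kb away). At Tbx1, a T-box gene of the arches, the nearest Pygo2 peak was 17.6 kb and the nearest β-catenin peak 39.6 kb from the gene. At Fgf8, a signal gene of the arch epithelium, they were 6.65 kb and 40.9 kb away. The muscle regulators Myod1, Myf5 and Myf6, and the kidney genes Gdnf, Ret, Sall1, Osr1 and Osr2, had no peak of either list in their windows.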

How the data were processed

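Per the file headers, the authors ran HOMER findPeaks (factor style) on each ChIP library singly, with the IgG library as control. Peaks passed a tag threshold of 11 (β-catenin) or 10 (Pygo2) that held the false discovery rate to 0.001, and a 2-fold excess of tags over both IgG and the local 10000 bp. Bowtie, Bowtie2, HOMER and mm10 are named in the submitters' processing notes, without roles. The score column as deposited holds 1 throughout and does not rank peaks. Position in the list is given instead; the headers do not state its order.

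Gene positions and promoter sequences came from RefSeq tables of GRCm38.p6, the assembly of mm10. All 7 symbols matched. Coordinates are 1-based. Distances run from the middle of a peak to the closer gene end (0 inside), and background shares cover all 21887 protein-coding genes with the same window. The window counts were tested on simulated data. Python 3.11.15, NumPy 2.4.6, pandas 2.3.3 and Matplotlib 3.10.9 were used. The genes, lists and motifs were chosen with earlier results of these data known. Named genes are all 7 members, the nearest other gene of each peak, and per list the 6 genes with most peaks and those tied with the last; other listed genes are named as examples after their values were seen. Libraries other than the β-catenin BA2 and Pygo2 BA2 ChIPs were not analysed here. The name of the nearest gene of the Six4 peaks and 1 gene of the partner list are not reported here.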

Additional observations from a re-analysis of the deposited data

How the results depend on the processing

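The counts were repeated with 30 alternative values, of which 23 stayed within 1.5 times the reported count. With a window of 10 kb there were 5 Pygo2 peaks in place of 11, 0 β-catenin peaks in place of 1 and 0 genes with a β-catenin peak in place of 1. With each peak given to its nearest protein-coding gene there were 3 Pygo2 peaks, 0 β-catenin peaks, 2 genes with a Pygo2 peak in place of 4 and 0 genes with a β-catenin peak. Both alternatives use fewer peaks by construction. The number of shared positions was 0 under each of its 7 alternatives. Most of these use a smaller window, fewer peaks or a stricter overlap, so they could not raise a count of 0. These 7 values are among the 23 and are no support for the lack of sharing. No paired analysis was possible because 1 library per protein was used here and no test was made. Peaks held a mean of 14.6 tags (β-catenin) and 15.5 tags (Pygo2) against calling minimums of 11 and 10, which limits what can be seen at genes without a peak.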

Other observations

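In a wider window of 500 kb, chosen after the values were seen, the 7 genes differed in how many Pygo2 peaks surrounded them. Eya2 had 25 Pygo2 and 4 β-catenin peaks, Six5 had 18 and 2, and Eya3, which had none within 100 kb, had 16 and 2. Six2 had 5 and 2, Six4 had 4 and 1, and Eya4 had 4 and 1. Eya1 had 0 of either, as did 15.4% of all protein-coding genes. How often other genes reach the larger counts in this window was not computed. None of those counts can therefore be called high or low.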
